A study of Mus musculus with 98 samples.

Results

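The translation initiation and elongation factors measured here were 51 genes, carried by 117 probe sets, out of 14639 genes and unnamed probe sets on 22626 probe sets that were kept in all. Members were the genes whose symbol begins with Eif1, Eif2, Eif3, Eif4, Eif5, Eef1 or Eef2 in the platform's gene table, where a probe set names 1 gene only. A probe set is a group of short oligonucleotides directed at a transcript. The prefix takes in the factors themselves and the kinases, repressors and methyltransferases named after them. The 98 arrays came from mice of 3 models. These were trauma-hemorrhage (tissue injury with blood loss), burn injury, and lipopolysaccharide (LPS, a component of bacterial cell walls) given by infusion, in blood leukocytes (64 arrays) and spleen (34 arrays). The titles mark each array as c or x without any label explaining these codes, and the question was how x arrays differed from c arrays within each model and tissue. In blood, titles also carry a letter, which the labels give as E for the injured or infused mice and A for sham treatment. Each code holds both letters. Burn blood had 11 c arrays (5 A, 6 E) and 9 x arrays (4 A, 5 E), LPS blood 12 c arrays (6 A, 6 E) and 10 x arrays (5 A, 5 E), and trauma-hemorrhage blood 11 c arrays (5 A, 6 E) and 11 x arrays (5 A, 6 E). In spleen, where E is the sole letter, burn had 5 c and 6 x arrays, LPS had 6 of each code, and trauma-hemorrhage had 6 c and 5 x arrays. The burn spleen samples are described as leukocytes of the spleen, the other spleen samples only as spleen, and the LPS spleen titles carry an extra version mark. Strain, sex, age, dose and time after injury are not given in the sources used here. No label states whether arrays of 1 group came from separate mice, so the p-values reflect just the array-to-array spread here, which may be technical.

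Translation of most mRNAs begins when eIF2 brings the initiator tRNA to the small ribosomal subunit, the eIF4F complex loads that subunit at the mRNA cap, and eIF1, eIF1A, eIF3 and eIF5 guide it to the start codon. Stress is sensed by kinases that phosphorylate eIF2, which blocks its recharging by the exchange factor eIF2B, while eIF4E-binding proteins keep the cap-binding factor eIF4E from its partners until mTOR signalling releases it. Elongation is carried by eEF1, which delivers aminoacyl-tRNA, and by eEF2, which moves the ribosome along. In leukocytes these steps set how fast cytokine and effector mRNAs are turned into protein after a stimulus.

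Levels below are log2(intensity + 16) after quantile normalization within a tissue, each gene is represented by its brightest probe set, and differences are x minus c in log2 units with their standard error (SE). Adjusted p-values are limma's, over all 10247 genes tested in a comparison, and a gene is called at an adjusted p under 0.05. Where x arrays are counted against the c mean of their letter, each is set against the mean of the c arrays with the same letter, A or E. The arrays of a group correlated at 0.938 to 0.994 over all probe sets. Some leukocyte, erythroid and platelet markers were bright and others of the same lists were not. In blood the neutrophil list ran from Camp at percentile 64.2 of all genes to S100a8 at 99.8. The T cell list ran from Cd5 at 42.1 to Cd3e at 95.2 there. For the erythroid list the range was Hba-a1 at 19.7 to Alas2 at 99.9, and for the platelet list Itga2b at 63.2 to Ppbp at 99.7. In spleen the B cell list ran from Pax5 at 39.0 to Ms4a1 at 99.5. Cell markers moved with the code. The neutrophil list was called higher in x for 8 of 11 members tested in burn blood, 11 of 11 in LPS blood, 7 of 11 (with 2 lower) in trauma-hemorrhage blood, 7 of 11 in LPS spleen and 6 of 11 in trauma-hemorrhage spleen. Its mean level ran from 8.31 to 11.8 on c arrays and 10.1 to 10.7 on x arrays of burn blood, from 8.60 to 10.7 and 9.26 to 11.8 in LPS blood, and from 9.18 to 10.7 and 10.4 to 12.4 in trauma-hemorrhage blood. The B cell list was lower for 6 of 6 members tested in burn blood (mean level 8.82 to 9.99 on c arrays, 8.36 to 8.82 on x arrays), 6 of 7 in burn spleen (10.8 to 10.9 against 10.5 to 10.6) and 4 of 6 in trauma-hemorrhage spleen (10.4 to 10.7 against 9.92 to 10.2). The T cell list was lower for 5 of 7 in trauma-hemorrhage spleen (8.58 to 8.87 against 8.01 to 8.20) and higher for 3 of 7 in burn spleen (8.11 to 8.77 against 8.87 to 9.22). The NK cell list was lower for 4 of 5 in burn blood (8.59 to 9.15 against 8.35 to 8.64), 3 of 6 in burn spleen (8.39 to 8.87 against 8.15 to 8.36) and 3 of 6, with 1 higher, in trauma-hemorrhage spleen (8.22 to 8.39 against 8.02 to 8.24). In burn spleen the stroma list was lower for 3 of 5 (6.64 to 6.83 against 6.48 to 6.66), the monocyte list for 4 of 6, with 1 higher (8.56 to 9.05 against 8.54 to 8.88), and the erythroid list for 1 of 3, with no overlap of its mean level (7.23 to 7.75 against 6.24 to 6.59). The monocyte list was higher for 5 of 7 in trauma-hemorrhage blood (8.61 to 9.75 against 9.51 to 10.5). In spleen of that model it was lower for 3 of 6, with 1 higher. Its mean level there, over all 7 measured genes, ran the other way, from 8.15 to 8.60 on c arrays and 8.46 to 8.81 on x arrays. The platelet list was higher for 5 of 7 in LPS blood (9.78 to 10.4 against 10.2 to 10.7). A measure of RNA integrity moved with the code in 2 sets: the beta-actin control probe sets had a 3' over 5' signal ratio, in log2, of 1.49 to 1.65 on c arrays and 0.938 to 1.27 on x arrays of LPS blood, and 1.79 to 2.28 and 0.970 to 1.65 in trauma-hemorrhage blood. In the other 4 sets the codes overlapped in this ratio. The same ratio of the Gapdh control probe sets overlapped between codes in LPS blood and trauma-hemorrhage blood. It ran from 2.59 to 2.83 on c arrays and 2.52 to 3.09 on x arrays of LPS blood. The ranges were 2.64 to 3.02 and 2.45 to 3.04 in trauma-hemorrhage blood. Its LPS blood median was 2.75 on c and 2.92 on x arrays, the opposite direction to beta-actin. The Gapdh ratio was not used as a covariate. The part of cell makeup in the values below was not tested, and in bulk RNA fewer cells of a type and less RNA per cell cannot be told apart.

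Members were called most often in trauma-hemorrhage blood, where they lay mainly higher in x, while in burn blood they lay mainly lower and in the spleen sets few or mixed members were called. In trauma-hemorrhage blood 23 of 45 members tested were higher (51.1%, against 20.6% of all genes) and 8 lower (17.8%, against 33.6%), with a member median of 0.20 against -0.06 over all genes. In burn blood 2 of 43 were higher (4.65%, against 7.97%) and 11 lower (25.6%, against 11.6%), with a median of -0.11 against -0.01. LPS blood had 9 of 43 higher (20.9%, against 13.6%) and 11 lower (25.6%, against 13.9%), with a median of -0.04 against -0.01, so that members moved both ways. Trauma-hemorrhage spleen had 9 of 50 higher (18%, against 11.6%) and 10 lower (20%, against 18.1%), a median of 0.02 against -0.01. Burn spleen had 4 of 49 higher (8.16%, against 9.79%) and 1 lower (2.04%, against 9.16%), and LPS spleen 1 higher and 1 lower of 49 (2.04% each, against 3% and 1.19%), with medians of 0.04 and -0.01 against -0.02 in both. Over the 6 sets, 43 members were called at least once and 8 never, 1 gene (Eif1a) was called in 5 sets and 2 genes in 4. Of the 51, 42 were bright enough to be tested in all 6 sets.

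**Figure D1:**
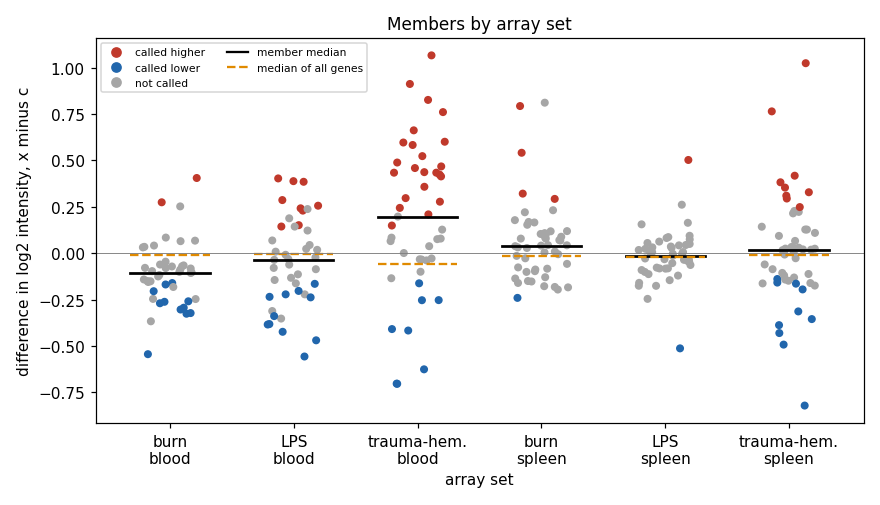
Difference in log2 intensity, x minus c, of every member tested (points) in each of the 6 array sets, with the member median (black line) and the median of all genes tested (dashed line). The trauma-hemorrhage blood points lie mostly above 0, with a median of 0.20, and the burn blood points mostly below, with a median of -0.11.

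These counts depended on which arrays and adjustments entered. With the beta-actin ratio as a covariate, 0 of the 31 calls of trauma-hemorrhage blood and 3 of the 20 of LPS blood were kept. Over all genes the calls fell as well, from 5553 to 16 and from 2811 to 1152. The median SE of the called members rose from 0.09 to 0.21 and from 0.07 to 0.21. In trauma-hemorrhage blood 29 of the 31 still had the same sign and the member median was 0.24, whereas in LPS blood 13 of 20 had it. Because the ratio did not overlap between codes in either set, its part and that of the code cannot be told apart. Among arrays of letter A alone, 22 members were called in burn blood (20 of them lower). In LPS blood 6 were called (5 higher, 1 lower) and in trauma-hemorrhage blood 28 (23 higher, 5 lower). Among those of letter E alone the members called were 1 (higher), 11 (3 higher, 8 lower) and 13 (9 higher, 4 lower). Over all genes, in the same order, 2077, 734 and 4261 were called with letter A and 287, 1816 and 2397 with letter E. Whether x minus c differs between the letters was not tested. Titles fall into runs of consecutive numbers, a split chosen after seeing the data. Within the first and the second run alone limma called 10 and 0 members in burn blood. In LPS blood it called 17 (4 higher, 13 lower, member median -0.09) and 6 (5 higher, 1 lower, member median 0.07). It called 7 and 29 in trauma-hemorrhage blood and 3 and 0 in LPS spleen. Over all genes the calls were 1242 and 58, 2785 and 472, 1256 and 4764, and 370 and 230 in the same order. A pair of c arrays of letter E stood apart in burn blood, and without it 19 members were called (2 higher, 17 lower), among them 12 of the 13. Over all genes 2944 were called without that pair and 2007 with it. On the intensities as deposited, without quantile normalization, the split was 27 higher and 3 lower in trauma-hemorrhage blood and 9 higher and 0 lower in burn spleen. Of the 90 calls, 73 were kept whichever single array was left out.

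**Figure D2:**
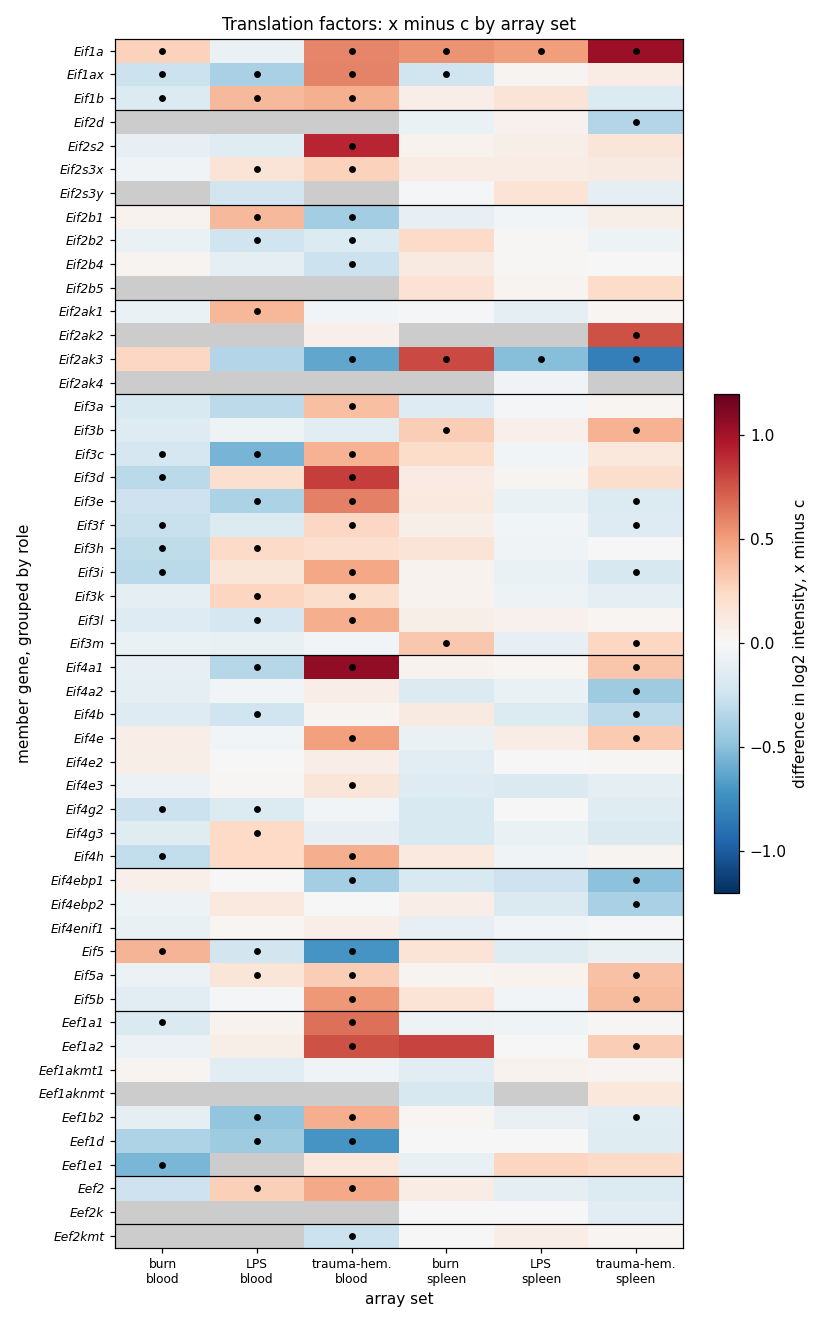
Difference in log2 intensity, x minus c, for each member (rows, grouped by role) in each array set (columns), with a dot where limma called it and grey where the gene was too dim to be tested. Eif1a carries a dot in 5 columns, Eif2ak3 changes sign between burn spleen and the other spleen sets, and most eIF3 rows are positive in trauma-hemorrhage blood and negative in burn blood.

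The scanning factors eIF1 and eIF1A hold the small subunit open while it searches for the start codon, and they gave the most often called member. Eif1a, an autosomal gene for eIF1A, was higher in x in 5 of the 6 sets. Its level was 8.32 to 8.54 (median 8.43) on the 6 c arrays and 9.31, 9.20, 9.46, 9.79 and 9.44 on the 5 x arrays of trauma-hemorrhage spleen, a gap of 1.02 ± 0.09 (adjusted p = 1.2e-06), or 2.03-fold. In burn spleen it was 7.69, 7.87, 7.79, 8.29 and 7.93 on the 5 c arrays and 8.39 to 8.56 (median 8.43) on the 6 x arrays, a difference of 0.54 ± 0.09 (adjusted p = 6.49e-04), and in LPS spleen 8.31 to 8.60 (median 8.46) on the 6 c arrays and 8.89 to 9.07 (median 8.94) on the 6 x arrays, a difference of 0.50 ± 0.06 (adjusted p = 9.14e-05). In all 3 spleen sets every x array lay above every c array. The blood levels were 7.26 to 7.86 (median 7.58) on the 11 c arrays and 7.82 to 8.50 (median 8.14) on the 11 x arrays of trauma-hemorrhage (0.58 ± 0.08, adjusted p = 8.78e-06) and 7.82 to 8.46 (median 8.05) on the 11 c arrays and 8.22 to 8.44 (median 8.37) on the 9 x arrays of burn (0.27 ± 0.06, adjusted p = 0.003). There the codes overlapped, with 11 of 11 and 9 of 9 x arrays above the c mean of their letter. In LPS blood Eif1a was not called, at -0.08 ± 0.06 (adjusted p = 0.314). A second probe set for Eif1a gave 1.07 ± 0.10 in trauma-hemorrhage spleen, 0.999 ± 0.084 in LPS spleen, 1.07 ± 0.13 in trauma-hemorrhage blood and 0.42 ± 0.10 in LPS blood, all called, but 0.17 in burn spleen and 0.08 in burn blood, which were not.

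Eif1ax, the X-linked gene for the same factor, did not follow Eif1a. It was lower in x in burn blood at -0.26 ± 0.05 (adjusted p = 0.00122), in LPS blood at -0.38 ± 0.13 (adjusted p = 0.0259) and in burn spleen at -0.24 ± 0.06 (adjusted p = 0.013), where its 5 c arrays read 9.40, 9.54, 9.52, 9.41 and 9.38 and all 6 x arrays lay below them, at 9.15 to 9.34 (median 9.18). In trauma-hemorrhage blood it was higher, at 0.60 ± 0.10 (adjusted p = 6.59e-05). The call in LPS blood ended without 1 array, replicate 3 of x letter E, at -0.31 (adjusted p = 0.0551). In burn spleen it ended on the intensities as deposited, at -0.19 (adjusted p = 0.0549). Eif1b, a gene for eIF1, was lower in burn blood at -0.16 ± 0.05 (adjusted p = 0.0379), a call that ended on leaving out any 1 of 11 arrays (adjusted p from 0.0529 to 0.0799). It was higher in LPS blood at 0.38 ± 0.06 (adjusted p = 2.58e-05) and in trauma-hemorrhage blood at 0.42 ± 0.07 (adjusted p = 5.1e-05). All 3 scanning factors were thus higher in trauma-hemorrhage blood, where 20.6% of all genes were higher.

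Among the carriers of initiator tRNA, Eif2s2, the beta subunit of eIF2, stood out in trauma-hemorrhage blood. Its level was 8.46 to 9.40 (median 8.68) on the 11 c arrays and 9.48 to 10.09 (median 9.66) on the 11 x arrays, so no x array reached down to a c array, and the difference was 0.91 ± 0.09 (adjusted p = 1.94e-07), or 1.88-fold. A second probe set rose with it, at 0.89 ± 0.13, while another was called lower, at -0.45 ± 0.08, so the probe sets of Eif2s2 disagree there. In the other 5 sets it was not called, with differences from -0.14 in LPS blood to 0.14 in trauma-hemorrhage spleen. Eif2s3x, a gamma subunit, was higher in LPS blood at 0.15 ± 0.05 and in trauma-hemorrhage blood at 0.28 ± 0.05, with 11 of 11 x arrays above the c mean of their letter in the latter. The LPS call of Eif2s3x ended on the intensities as deposited (adjusted p = 0.106). Eif2d, which can deliver tRNA apart from eIF2, was called only in trauma-hemorrhage spleen among the 3 sets where it was tested, at -0.36 ± 0.07 (adjusted p = 0.00173). In blood it was too dim to be tested. Its burn blood level was 6.77 to 7.09 on c arrays and 6.56 to 6.73 on x arrays, without overlap. In LPS blood 10 of 10 x arrays lay below the c mean of their letter, and in trauma-hemorrhage blood 2 of 11.

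The eIF2 kinases answer different stresses, and the one that senses misfolded protein in the endoplasmic reticulum was called in the most sets. Eif2ak3, which encodes that kinase (PERK), was higher in x in burn spleen and lower in the other 2 spleen sets. In burn spleen its level was 8.96, 9.17, 9.07, 9.06 and 8.88 on the 5 c arrays and 9.45 to 10.36 (median 9.77) on the 6 x arrays, with no overlap and a difference of 0.79 ± 0.13 (adjusted p = 6.20e-04). In LPS spleen it was 8.91 to 9.42 (median 9.09) on the 6 c arrays and 8.48 to 8.71 (median 8.61) on the 6 x arrays, again without overlap but the other way round, at -0.51 ± 0.08 (adjusted p = 7.29e-04). Trauma-hemorrhage spleen read 9.20 to 9.42 (median 9.30) on the 6 c arrays and 8.31, 8.69, 8.51, 8.51 and 8.40 on the 5 x arrays, with every x array below every c array and a difference of -0.82 ± 0.08 (adjusted p = 1.21e-06). The opposite directions differed by 1.31 ± 0.15 (adjusted p = 8.88e-08) between burn and LPS and by -1.61 ± 0.15 (adjusted p = 2.37e-10) between trauma-hemorrhage and burn. In trauma-hemorrhage blood Eif2ak3 was 7.56 to 8.60 (median 8.03) on the 11 c arrays and 6.90 to 7.76 (median 7.45) on the 11 x arrays, a difference of -0.63 ± 0.11 (adjusted p = 6e-05), with all 11 x arrays below the c mean of their letter. It was not called in burn blood (0.25 ± 0.13) or LPS blood (-0.35 ± 0.17), where x arrays spread from 7.03 to 8.76.

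**Figure D3:**
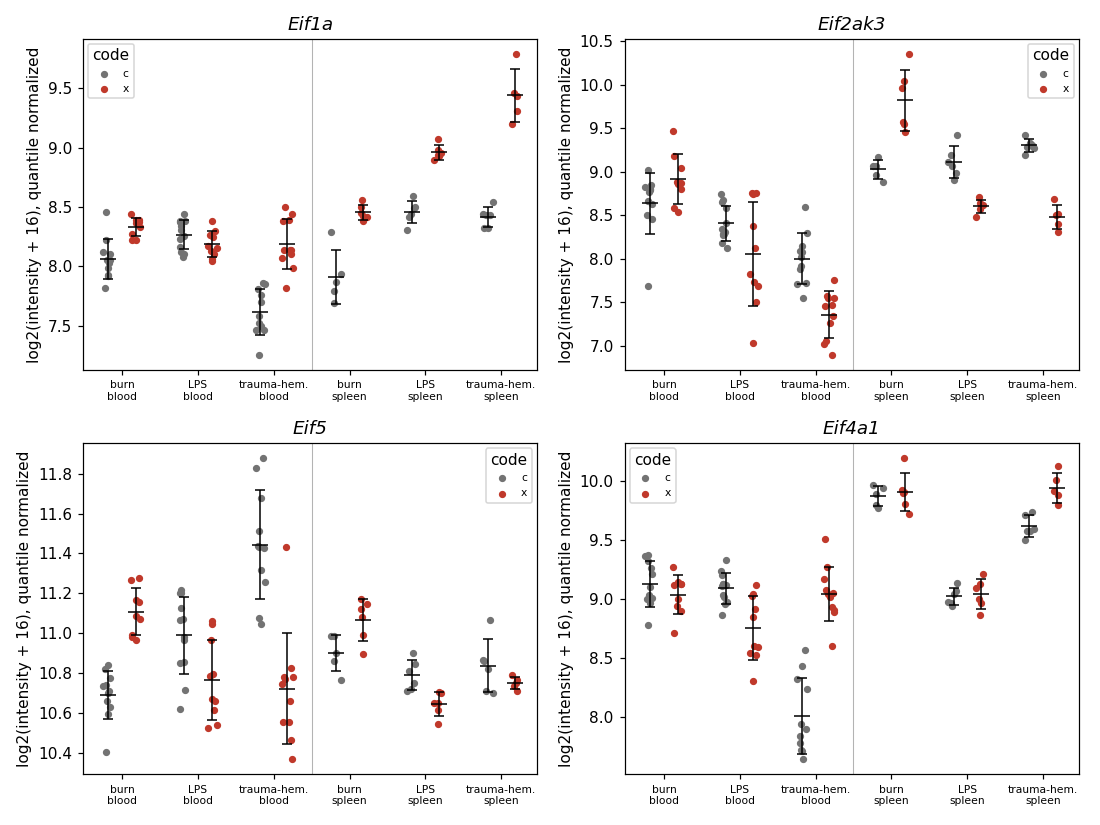
Level, log2(intensity + 16) after quantile normalization within a tissue, of Eif1a, Eif2ak3, Eif5 and Eif4a1 on every array, by array set and code (grey c, red x), with the mean and SD of each code. Eif1a lies higher in x in all 3 spleen sets without overlap, Eif2ak3 higher in burn spleen and lower in the other 2, Eif5 higher in burn blood and mostly lower in trauma-hemorrhage blood, and Eif4a1 higher in trauma-hemorrhage blood. Levels of different sets were not compared.

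Eif2ak2, the kinase PKR that is activated by double-stranded RNA and induced by interferon, had a representative probe set bright enough to be tested in both trauma-hemorrhage sets only. In spleen its level was 7.21 to 7.66 (median 7.52) on the 6 c arrays and 8.53, 8.15, 7.88, 8.23 and 8.42 on the 5 x arrays, with no overlap and a difference of 0.76 ± 0.11 (adjusted p = 1.07e-04), and a second probe set was called too, at 0.27 ± 0.08. In blood it was not called, at 0.06 ± 0.06, although the second probe set was, at 0.41 ± 0.10. In burn spleen that second probe set was called lower, at -0.29 ± 0.10, and in LPS blood it was not called, at 0.04 ± 0.05. The tissues differed in trauma-hemorrhage by -0.63 ± 0.15 (adjusted p = 0.00336), on arrays of letter E. The start of the Eif2ak2 gene holds a match to GAAA, any 2 bases and GAAA again, the core of the element that interferon response factors bind, and is shown for that reason, in capitals within 30 bases at chr17:78882535-78882564 (minus strand) of GRCm38.p6 from RefSeq, with the first base of the motif 19 bases past the annotated start.
Eif2ak2: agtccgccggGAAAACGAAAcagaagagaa

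Searched on both strands, that motif stood in 3 of the 57 promoter windows of members (5.26%) and in 1131 of all 32851 windows (3.44%), a window reaching from 250 bases before to 50 bases after a start. A match is a description of the sequence. Eif2ak1, the kinase that senses heme shortage and is abundant in erythroid cells, was higher in LPS blood, where its level was 8.0 to 8.37 (median 8.21) on the 12 c arrays and 8.37 to 8.89 (median 8.54) on the 10 x arrays. No x array lay below a c array, and the difference was 0.40 ± 0.05 (adjusted p = 1.06e-05). It was called in none of the other sets, with differences from -0.12 in LPS spleen to 0.03 in trauma-hemorrhage spleen, and its other 2 probe sets were not called in LPS blood but were called lower in trauma-hemorrhage blood, at -0.28 ± 0.09 and -0.20 ± 0.07. The erythroid marker list had 1 member higher and 1 lower of 5 tested in LPS blood. Eif2ak4, the kinase GCN2 that senses amino acid shortage, was tested in LPS spleen alone and not called (-0.04 ± 0.08). In trauma-hemorrhage blood 8 of its 11 c arrays and 10 of its 11 x arrays were at the floor of the deposited values.

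The exchange factor eIF2B recharges eIF2 with GTP. Its 3 subunits tested in trauma-hemorrhage blood were all called lower there, where 33.6% of all genes were lower. For 2 of them the direction held on the intensities as deposited. The other measured subunit, Eif2b5, was too dim to be tested in that set and ran the other way. Its level was 5.79 to 6.16 (median 5.95) on c arrays and 6.21 to 6.87 (median 6.56) on x arrays, without overlap. Eif2b1, a regulatory subunit, was 8.96 to 9.92 (median 9.43) on the 11 c arrays and 8.23 to 9.60 (median 9.13) on the 11 x arrays, a difference of -0.42 ± 0.14 (adjusted p = 0.016), and -0.20 (adjusted p = 0.217) as deposited. It turned to 0.15 (adjusted p = 0.896) with the beta-actin ratio as a covariate. In LPS blood it was higher, at 0.39 ± 0.10 (adjusted p = 0.00407), with 9 of 10 x arrays above the c mean of their letter, and the sets differed by -0.81 ± 0.17 (adjusted p = 7.06e-05). Eif2b2, another regulatory subunit, was lower in LPS blood at -0.24 ± 0.05 (adjusted p = 0.00201) and in trauma-hemorrhage blood at -0.16 ± 0.07 (adjusted p = 0.0499). With the same covariate the LPS value of Eif2b2 turned to 0.09 (adjusted p = 0.719). The call in trauma-hemorrhage blood ended on leaving out any 1 of 17 arrays (adjusted p up to 0.0914), and the sign turned on the intensities as deposited, at 0.02 (adjusted p = 0.820). Another probe set of Eif2b2 was called higher in trauma-hemorrhage blood. Eif2b4 was lower at -0.25 ± 0.08 (adjusted p = 0.0121), and at -0.19 (adjusted p = 0.0552) as deposited. Burn blood and the 3 spleen sets had 0 subunits called.

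The eIF3 complex, a scaffold that joins mRNA, ribosome and initiation factors, moved most as a group in blood. In trauma-hemorrhage blood 8 of its 11 measured subunits were higher and 0 lower, with a median of 0.36. In burn blood 5 were lower and 0 higher, with a median of -0.21. LPS blood had 2 higher and 3 lower. Over all genes 20.6% were higher and 33.6% lower in trauma-hemorrhage blood, 7.97% and 11.6% in burn blood, and 13.6% and 13.9% in LPS blood. In spleen there were 2 higher for burn, 0 called for LPS, and 2 higher and 3 lower for trauma-hemorrhage. Eif3d, a subunit that can itself bind a cap, changed furthest. Its level was 7.10 to 7.75 (median 7.21) on the 11 c arrays and 7.76 to 8.61 (median 8.06) on the 11 x arrays of trauma-hemorrhage blood, without overlap, a difference of 0.83 ± 0.08 (adjusted p = 1.66e-07), or 1.77-fold. In burn blood it was 8.25 to 8.70 (median 8.56) on the 11 c arrays and 8.07 to 8.44 (median 8.22) on the 9 x arrays, a difference of -0.33 ± 0.05 (adjusted p = 2.38e-04), with all 9 x arrays below the c mean of their letter. The models differed by 1.15 ± 0.11 (adjusted p = 3.32e-12).

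Eif3c, a core subunit, was lower in LPS blood, at 8.74 to 9.32 (median 9.11) on the 12 c arrays and 8.20 to 8.86 (median 8.50) on the 10 x arrays (-0.56 ± 0.08, adjusted p = 2.24e-05), and all 10 x arrays lay below the c mean of their letter. It was higher in trauma-hemorrhage blood at 0.41 ± 0.08 (adjusted p = 1.72e-04). In burn blood the difference of -0.21 ± 0.07 (adjusted p = 0.0331) lost its call on leaving out any 1 of 11 arrays (adjusted p from 0.0542 to 0.0677) and as deposited (adjusted p = 0.0690). One further probe set of Eif3c moved with it in LPS blood, at -0.60 ± 0.09, and another against it, at 0.23 ± 0.06, both called. Eif3h was lower in burn blood at -0.30 ± 0.07 (adjusted p = 0.00265) and higher in LPS blood at 0.23 ± 0.06 (adjusted p = 0.00631), where all 10 x arrays exceeded the c mean of their letter, and in burn blood all 9 fell short of it. The LPS value of Eif3h turned to -0.03 (adjusted p = 0.941) with the beta-actin ratio as a covariate, and its call ended as deposited (adjusted p = 0.0588), where Eif3h was called higher in trauma-hemorrhage blood, at 0.41.

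A second pattern set blood against spleen in trauma-hemorrhage: Eif3e, Eif3f and Eif3i were each called higher in x in blood and lower in spleen. Eif3e, at 8.82 to 10.10 (median 9.07) on the 11 c arrays and 9.45 to 10.29 (median 9.84) on the 11 x arrays in blood, differed by 0.60 ± 0.13 (adjusted p = 6.54e-04), and in spleen by -0.16 ± 0.05 (adjusted p = 0.0347). For Eif3f the values were 0.24 ± 0.10 (adjusted p = 0.0355) and -0.16 ± 0.05 (adjusted p = 0.0287), and for Eif3i, read from 11.53 to 11.73 (median 11.59) on the 6 spleen c arrays and at 11.29, 11.40, 11.64, 11.33 and 11.40 on the 5 x arrays, 0.47 ± 0.12 (adjusted p = 0.00267) and -0.20 ± 0.06 (adjusted p = 0.0261). Tested directly on arrays of letter E, blood and spleen were not called different for any of these 3. The small spleen calls ended on leaving out any 1 of 5, 6 and 4 arrays (adjusted p up to 0.0862, 0.0725 and 0.0677) and on the intensities as deposited (adjusted p = 0.284, 0.286 and 0.244). The blood call of Eif3f ended on leaving out any 1 of 8 arrays (adjusted p up to 0.0766), and that of Eif3f in burn blood, -0.27 ± 0.07 (adjusted p = 0.01), ended as deposited (adjusted p = 0.0809). In burn blood Eif3i was lower too, at -0.32 ± 0.09 (adjusted p = 0.0139), with every x array below the c mean of their letter. In LPS blood Eif3e was lower, at -0.38 ± 0.12 (adjusted p = 0.0178), and at adjusted p = 0.0549 as deposited. Another probe set of Eif3e was called higher in LPS blood. Within the second run of title numbers alone Eif3e was 0.01 there (adjusted p = 0.984).

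Eif3b, the RNA-binding subunit, was higher in spleen. It read 9.09, 8.99, 9.14, 9.07 and 9.03 on the 5 x arrays of trauma-hemorrhage against 8.45 to 8.81 (median 8.68) on the 6 c arrays, with no overlap and a difference of 0.42 ± 0.08 (adjusted p = 7.10e-04). In burn spleen, where its c arrays read 8.40, 8.35, 8.46, 8.59 and 8.52 and its x arrays 8.61 to 9.11 (median 8.71), the difference was 0.29 ± 0.09 (adjusted p = 0.0261). That call ended without replicate 1 (0.28, adjusted p = 0.0597) or replicate 2 (0.26, adjusted p = 0.0627) of the c arrays. In trauma-hemorrhage the tissues differed for Eif3b by -0.52 ± 0.12 (adjusted p = 0.00336). Eif3m was higher in burn spleen at 0.32 ± 0.09 (adjusted p = 0.015) and in trauma-hemorrhage spleen at 0.25 ± 0.09 (adjusted p = 0.0447), the latter lost on leaving out any 1 of 6 arrays (adjusted p up to 0.107) and as deposited (adjusted p = 0.113). In LPS blood Eif3l was lower, a call that ended on leaving out any 1 of 14 arrays (adjusted p up to 0.0958). The last 3 subunits called in blood were Eif3a, Eif3k and Eif3l, at 0.36, 0.21 and 0.43 in trauma-hemorrhage blood. Another probe set of Eif3a was called lower in that set. Eif3k was higher in LPS blood too, at 0.26 ± 0.05 (adjusted p = 0.00111), with 10 of 10 x arrays above the c mean of their letter.

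The eIF4F complex binds the cap through eIF4E, unwinds the leader with the helicase eIF4A and bridges to the ribosome through eIF4G. Its largest change was Eif4a1, the main helicase gene, in trauma-hemorrhage blood. The level was 7.64 to 8.57 (median 7.90) on the 11 c arrays and 8.60 to 9.51 (median 9.04) on the 11 x arrays, so that the lowest x array still exceeded the highest c array, and the difference of 1.07 ± 0.09 (adjusted p = 2.4e-08) amounted to 2.09-fold. A second probe set gave 0.90 ± 0.08, and the remaining one was not called, at -0.17 ± 0.09. With the beta-actin ratio as a covariate the difference was 1.02 ± 0.22 (adjusted p = 0.0530). In trauma-hemorrhage spleen Eif4a1 was 9.50 to 9.74 (median 9.59) on the 6 c arrays and 9.80, 9.92, 10.01, 10.13 and 9.88 on the 5 x arrays, also without overlap, at 0.33 ± 0.07 (adjusted p = 0.00293). In LPS blood it was lower, at -0.34 ± 0.09 (adjusted p = 0.00452), although a second probe set was called higher there, at 0.17 ± 0.06. The difference of trauma-hemorrhage from LPS blood was 1.41 ± 0.13 (adjusted p = 1.95e-13).

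Eif4a2, the second eIF4A helicase gene, went the other way in trauma-hemorrhage spleen, from 11.12 to 11.29 (median 11.22) on c arrays to 10.68, 10.99, 10.94, 10.49 and 10.77 on the 5 x arrays, a difference of -0.43 ± 0.08 (adjusted p = 7.96e-04) without overlap. Eif4e, the cap-binding factor, was higher in trauma-hemorrhage blood at 0.49 ± 0.06 (adjusted p = 9.64e-07), with 11 of 11 x arrays above the c mean of their letter, and in trauma-hemorrhage spleen at 0.31 ± 0.07 (adjusted p = 0.00316). Eif4b and Eif4h, which help the helicase, were not called in the same sets. Eif4b was lower in LPS blood (-0.24 ± 0.08) and trauma-hemorrhage spleen (-0.31 ± 0.08), and Eif4h lower in burn blood (-0.29 ± 0.06) and higher in trauma-hemorrhage blood (0.43 ± 0.10). Eif4g2, an eIF4G relative that lacks the eIF4E site, was lower in burn blood at -0.26 ± 0.07 (adjusted p = 0.00842) and in LPS blood at -0.17 ± 0.05 (adjusted p = 0.0225). The second call ended without replicate 2 of x letter E (-0.14, adjusted p = 0.0524), both ended as deposited (adjusted p = 0.212 and 0.185), and another probe set of Eif4g2 was called higher in LPS blood, at 0.31 ± 0.08. Of the 9 genes in this group, 4 were higher in trauma-hemorrhage blood, against 20.6% of all genes. In burn blood 2 of the 9 were lower, against 11.6% of all genes.

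Promoter windows were read for the members because so many lay higher together in trauma-hemorrhage blood. The E-box CACGTG, a palindrome bound by MYC and related factors, stood in 13 of the 57 windows of members (22.8%), which belong to 11 of 42 members, and in 2349 of all 32851 windows (7.15%). Of the 9 members with the motif that were tested in trauma-hemorrhage blood 9 were called higher, and of the 27 without it 10. These are the calls that prompted the reading, so the split only describes them and was not tested. Over all genes the shares higher were 21.8% of 812 with the motif and 20.6% of 6390 without, so over all genes tested these shares lay close together. In the other 5 sets 0 to 4 of the 9 to 11 tested members with the motif were higher. In burn blood 0 of 9 were higher and 3 lower. Over all genes with the motif, 1.90% to 11.9% were higher in those 5 sets, and 12.5% were lower in burn blood. A match is a description of the sequence, here as above. The 6 windows printed here are those of members with a single match, before the start and in 1 window, that were called higher in trauma-hemorrhage blood, a choice made after seeing the values. They come from RefSeq on GRCm38.p6, 30 bases each with the motif in capitals, at chr10:81176576-81176605 (plus strand) for Eef2, chr9:120492570-120492599 (plus strand) for Eif1b, chr7:108934335-108934364 (plus strand) for Eif3f, chr7:28981915-28981944 (minus strand) for Eif3k, chr11:69672595-69672624 (minus strand) for Eif4a1 and chr5:134639488-134639517 (minus strand) for Eif4h.
Eef2: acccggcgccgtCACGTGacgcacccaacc
Eif1b: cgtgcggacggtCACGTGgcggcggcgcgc
Eif3f: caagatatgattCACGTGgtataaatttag
Eif3k: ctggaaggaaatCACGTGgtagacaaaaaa
Eif4a1: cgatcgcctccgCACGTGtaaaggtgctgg
Eif4h: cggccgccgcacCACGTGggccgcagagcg

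The repressors that hold eIF4E were lower where their representative probe sets were called at all. Eif4ebp1, the gene of the first eIF4E-binding protein, was 8.23 to 8.46 (median 8.34) on the 6 c arrays and 7.70, 8.21, 8.07, 7.53 and 7.74 on the 5 x arrays of trauma-hemorrhage spleen, with every x array below every c array and a difference of -0.49 ± 0.11 (adjusted p = 0.00295). In trauma-hemorrhage blood it was 9.84 to 10.50 (median 10.29) on the 11 c arrays and 9.68 to 10.15 (median 9.82) on the 11 x arrays (-0.41 ± 0.07, adjusted p = 7.96e-05), all 11 x arrays below the c mean of their letter, but as deposited -0.05 (adjusted p = 0.668). The probe sets of Eif4ebp1 disagreed in spleen: one was called lower at -0.95 ± 0.19 and another higher at 0.48 ± 0.11. In burn and LPS spleen all 6 x arrays fell below the c mean of their letter, at -0.18 ± 0.07 and -0.25 ± 0.09, and neither was called. Another probe set of Eif4ebp1 was called higher in LPS blood, at 0.54 ± 0.08, and one in burn spleen, at 0.46 ± 0.10. Eif4ebp2 was lower in trauma-hemorrhage spleen at -0.39 ± 0.10 (adjusted p = 0.0102), and read 9.61, 9.96, 9.57, 9.83 and 9.92 on the 5 x arrays against 9.80 to 10.39 (median 10.20) on the c arrays, with some overlap. It was not called elsewhere. Eif4enif1, which carries eIF4E into the nucleus, was called in 0 of 6 sets, with differences from -0.10 to 0.08.

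Eif5, which triggers GTP hydrolysis by eIF2 at the start codon, was higher in x in burn blood and lower in the other 2 blood sets. Its level in burn blood was 10.40 to 10.84 (median 10.71) on the 11 c arrays and 10.97 to 11.27 (median 11.08) on the 9 x arrays, so the highest c array stayed below the lowest x array, at 0.40 ± 0.06 (adjusted p = 2.83e-05). In trauma-hemorrhage blood it was 11.04 to 11.88 (median 11.43) on the 11 c arrays and 10.37 to 11.43 (median 10.74) on the 11 x arrays, a difference of -0.70 ± 0.11 (adjusted p = 2.41e-05), with 10 of 11 x arrays below the c mean of their letter. All 4 probe sets of Eif5 were called in both sets and ran the same way, from 0.38 to 0.48 in burn blood and from -1.02 to -0.70 in trauma-hemorrhage blood. The 2 models differed by -1.11 ± 0.12 (adjusted p = 1.11e-10). On the intensities as deposited the trauma-hemorrhage value of Eif5 was -0.26 (adjusted p = 0.0648). In LPS blood it was -0.22 ± 0.07 (adjusted p = 0.0278), a call lost without replicate 5 of x letter A (-0.20, adjusted p = 0.0530) or replicates 2 or 4 of x letter E (-0.20, adjusted p = 0.0575 and 0.0570) and as deposited (adjusted p = 0.0559). Its other 3 probe sets were not called in LPS blood, at -0.13 to 0.06. With the beta-actin ratio as a covariate Eif5 was 0.23 in LPS blood and -0.17 in trauma-hemorrhage blood, neither called. Eif5b, the GTPase that joins the ribosomal subunits, was higher in trauma-hemorrhage blood at 0.52 ± 0.09 (adjusted p = 8.75e-05) and in trauma-hemorrhage spleen at 0.38 ± 0.12 (adjusted p = 0.0269), the latter lost on leaving out any 1 of 4 arrays (adjusted p up to 0.0796) and as deposited (adjusted p = 0.0750). Its 5 spleen x arrays read 8.16, 8.61, 8.35, 8.82 and 8.87. Eif5a, which helps the ribosome past stalling sequences, was higher in LPS blood (0.14 ± 0.05), trauma-hemorrhage blood (0.30 ± 0.06) and trauma-hemorrhage spleen (0.35 ± 0.07), and the first of these calls ended as deposited (adjusted p = 0.158).

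The eEF1 factors moved apart from each other. Eef1a1, the main carrier of aminoacyl-tRNA, was 11.42 to 12.13 (median 11.65) on the 11 c arrays and 12.05 to 12.58 (median 12.40) on the 11 x arrays of trauma-hemorrhage blood, where 11 of 11 x arrays lay above the c mean of their letter, at 0.66 ± 0.07 (adjusted p = 6.25e-07). It was lower in burn blood at -0.17 ± 0.05 (adjusted p = 0.0156), and at adjusted p = 0.0792 as deposited. Eef1a2, its tissue-restricted relative, was 7.75 to 9.09 (median 8.18) on the 11 c arrays and 8.82 to 9.30 (median 9.08) on the 11 x arrays in the same set (0.76 ± 0.11, adjusted p = 1.43e-05). In trauma-hemorrhage spleen Eef1a2 was higher at 0.29 ± 0.10 (adjusted p = 0.0432), a call that ended on leaving out any 1 of 8 arrays (adjusted p from 0.0651 to 0.114) and as deposited (adjusted p = 0.110). In burn spleen the 5 c arrays scattered over 5.80, 6.30, 4.96, 7.52 and 7.14, 1 of them at the floor, and the difference of 0.81 ± 0.32 (adjusted p = 0.0907) was not called.

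The exchange subunits of eEF1 gave mixed signs. Eef1b2 was lower in LPS blood, from 10.73 to 11.40 (median 11.20) on c arrays to 10.36 to 10.99 (median 10.67) on x arrays, at -0.47 ± 0.08 (adjusted p = 9.7e-05), with 10 of 10 x arrays below the c mean of their letter. It was higher in trauma-hemorrhage blood at 0.44 ± 0.10 (adjusted p = 0.0015), and the sets differed by 0.91 ± 0.12 (adjusted p = 1.93e-08). In trauma-hemorrhage spleen it was lower, at -0.14 ± 0.04 (adjusted p = 0.0251), with the 5 x arrays at 11.62, 11.56, 11.72, 11.66 and 11.61 not overlapping the c arrays at 11.72 to 11.84 (median 11.77). That call ended on leaving out any 1 of 4 arrays (adjusted p up to 0.0640) and as deposited (adjusted p = 0.323). Eef1d was lower in LPS blood at -0.42 ± 0.09 (adjusted p = 6.64e-04) and in trauma-hemorrhage blood at -0.70 ± 0.12 (adjusted p = 6e-05), where its x arrays ran from 7.99 to 9.29, all below the c mean of their letter. Another probe set of Eef1d was called higher in LPS blood, at 0.30 ± 0.07. With the beta-actin ratio as a covariate the differences of Eef1d were -0.05 and -0.17. Eef1e1, a component of the multi-tRNA synthetase complex, was 6.90 to 7.91 (median 7.56) on the 11 c arrays and 6.74 to 7.17 (median 7.0) on the 9 x arrays of burn blood, a difference of -0.54 ± 0.08 (adjusted p = 6.8e-05), the largest fall among members there. The methyltransferase genes Eef1akmt1 and Eef1aknmt were called in 0 sets.

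Eef2, the translocase, was higher in LPS blood, at 9.16 to 9.86 (median 9.49) on the 12 c arrays and 9.56 to 10.02 (median 9.75) on the 10 x arrays (0.29 ± 0.07, adjusted p = 0.00462), and in trauma-hemorrhage blood, at 8.82 to 9.72 (median 9.35) on the 11 c arrays and 9.36 to 10.35 (median 9.70) on the 11 x arrays (0.46 ± 0.12, adjusted p = 0.0025). Of the x arrays, 9 of 10 and 9 of 11 exceeded the c mean of their letter. The LPS value of Eef2 turned to -0.14 (adjusted p = 0.696) with the beta-actin ratio as a covariate. In burn blood it was -0.25 ± 0.10 (adjusted p = 0.0805) and not called. Burn differed from LPS blood by -0.53 ± 0.14 (adjusted p = 0.00378) for Eef2. Eef2k, the kinase that inhibits eEF2, was too dim to be tested in blood and was not called in the 3 spleen sets, with differences from -0.13 to 0.01. In blood its x arrays lay below the c mean of their letter for 2 of 9 in burn, 5 of 10 in LPS and 11 of 11 in trauma-hemorrhage. Eef2kmt, a methyltransferase of eEF2, was lower in trauma-hemorrhage blood at -0.25 ± 0.07 (adjusted p = 0.0065), with every x array below the c mean of their letter, and it turned to 0.08 (adjusted p = 0.888) with the beta-actin ratio as a covariate.

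Other genes of the pathway were read from 4 lists of 5 to 14 tested genes, in which a single gene moves a share by several percentage points. Of the mTOR and MNK signalling list, 5 of 13 tested genes were lower and 2 higher in trauma-hemorrhage spleen, 3 lower and 3 higher of 12 in trauma-hemorrhage blood, 4 lower and 1 higher of 14 in LPS blood, 1 lower and 2 higher of 13 in LPS spleen, and 3 higher and 0 lower of 14 and 12 in burn blood and burn spleen. In trauma-hemorrhage blood that is 25% each way, against 20.6% of all genes higher and 33.6% lower, and in trauma-hemorrhage spleen 15.4% higher and 38.5% lower, against 11.6% and 18.1%. LPS blood had 28.6% lower against 13.9%, and burn blood and burn spleen 21.4% and 25% higher against 7.97% and 9.79%. Ddit4, an inhibitor of mTOR, was higher in burn spleen by 1.70 ± 0.11 and lower in trauma-hemorrhage spleen at -0.51 ± 0.14. Larp1, a repressor of mRNAs for ribosomal proteins and translation factors, was higher by 1.17 ± 0.13 in trauma-hemorrhage blood and 0.78 ± 0.10 in trauma-hemorrhage spleen. Mknk2, a kinase that phosphorylates eIF4E, was lower there at -0.66 ± 0.09 and -0.99 ± 0.10. Pdcd4, an inhibitor of eIF4A, was higher in burn blood by 0.44 ± 0.06 and lower in LPS blood at -0.81 ± 0.10.

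In the integrated stress response list, LPS blood had 4 higher and 1 lower of 9 tested, burn spleen 3 and 1 of 9, trauma-hemorrhage blood 3 and 2 of 9, burn blood 2 and 1 of 9, trauma-hemorrhage spleen 1 and 1 of 9, and LPS spleen 1 and 0 of 11. The share higher was 44.4% in LPS blood against 13.6% of all genes, and 33.3% in burn spleen and in trauma-hemorrhage blood against 9.79% and 20.6%. Ppp1r15a, the inducible subunit that dephosphorylates eIF2, was higher in burn spleen by 0.65 ± 0.11, where Eif2ak3 was higher too, and in LPS spleen by 0.41 ± 0.10, where Eif2ak3 was lower. Its constitutive counterpart Ppp1r15b was higher by 1.10 ± 0.15 in trauma-hemorrhage blood and by 0.48 ± 0.10 in LPS blood. Ddit3, a transcription factor downstream of PERK, was higher in burn blood by 0.25 ± 0.05 and lower in trauma-hemorrhage blood at -0.43 ± 0.08. Of the termination, recycling and poly(A) binding list, 4 were higher and 4 lower of 14 in trauma-hemorrhage spleen, 4 and 3 of 12 in trauma-hemorrhage blood, 3 and 3 of 13 in LPS blood, 2 and 5 of 14 in burn blood, 2 and 0 of 14 in burn spleen and 0 of 13 in LPS spleen. In trauma-hemorrhage blood that is 33.3% higher and 25% lower, against 20.6% and 33.6% of all genes, in trauma-hemorrhage spleen 28.6% each way, against 11.6% and 18.1%, and in burn blood 35.7% lower against 11.6%. Eif6, which keeps the large subunit from joining early and is no member, was higher by 0.41 ± 0.04, 0.44 ± 0.06 and 0.44 ± 0.08 in LPS blood, trauma-hemorrhage blood and trauma-hemorrhage spleen, and lower in burn blood at -0.23 ± 0.06. Of the 5 mitochondrial translation factors tested, 0 or 1 was called in each set.

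The labels explain only the letters of the blood arrays, and between E and A limma called 0 members in burn, LPS and trauma-hemorrhage blood, where 0%, 0% and 0.0293% of all genes were called. At an unadjusted p under 0.05 there were 4 of 43, 2 of 43 and 5 of 45 members. The smallest adjusted p was 0.211, for Eif3h in trauma-hemorrhage blood, at -0.27 ± 0.09 for E minus A. In burn blood the smallest p belonged to Eef1akmt1, at 0.19 ± 0.06 (adjusted p = 0.907). Between x and c, by contrast, limma called 2007, 2811 and 5553 genes in burn, LPS and trauma-hemorrhage blood. The meaning of the letters was taken from the labels and was not tested.

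Whether x minus c differed between models was tested in single fits. In blood 30 of 45 members differed between trauma-hemorrhage and burn (66.7%, against 45.2% of all genes), 25 of them more positive in trauma-hemorrhage. Between trauma-hemorrhage and LPS 22 of 45 differed (48.9%, against 49.4%), 17 of them more positive in trauma-hemorrhage, and between burn and LPS 19 of 45 (42.2%, against 21.4%), 14 of them more negative in burn. The share for trauma-hemorrhage against LPS was thus no higher than the background. The largest difference between burn and LPS was that of Eef1e1, at -0.80 ± 0.12 (adjusted p = 6.09e-07), a gene not bright enough for the separate test in LPS blood. In spleen 16 of 51 members differed between trauma-hemorrhage and burn (31.4%, against 25.5%), 6 of 51 between trauma-hemorrhage and LPS (11.8%, against 13.4%) and 3 of 51 between burn and LPS (5.88%, against 10.4%). Those 3 were Eif2ak3, Eif5 (0.31 ± 0.08, adjusted p = 0.00735) and Eif1ax (-0.27 ± 0.08, adjusted p = 0.0294). For Eif1a, higher in all 3 spleen sets, trauma-hemorrhage exceeded burn by 0.48 ± 0.12 (adjusted p = 0.00236) and LPS by 0.52 ± 0.12 (adjusted p = 0.00164).

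Between blood and spleen of a model, on arrays of letter E, 10 of 47 members differed in trauma-hemorrhage (21.3%, against 25.9%), 6 of 48 in LPS (12.5%, against 8.75%) and 0 of 46 in burn (0%, against 3.56%), where 10 had an unadjusted p under 0.05. In trauma-hemorrhage Eif5 was the most different, at -0.83 ± 0.15 (adjusted p = 4.80e-04), followed in size by Eef1d at -0.78 ± 0.21 (adjusted p = 0.00964). In LPS, Eif1a (-0.61 ± 0.10, adjusted p = 4.07e-04) and Eif3c (-0.61 ± 0.12, adjusted p = 0.00158) were lower in blood relative to spleen, and Eif2ak1 was higher, at 0.40 ± 0.11 (adjusted p = 0.0193). Leaving out replicate 5 of x letter E in LPS blood raised that count of 6 to 13, leaving out replicate 4 of the trauma-hemorrhage spleen x arrays lowered the 6 of trauma-hemorrhage against LPS spleen to 3, and leaving out replicate 4 of the burn spleen c arrays raised the 3 of burn against LPS spleen to 5 and the 5 calls of burn spleen to 9. Without replicate 2, 5 or 6 of c letter E in burn blood, 1, 3 and 1 members differed between burn blood and burn spleen.

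Probe sets of 1 gene were called in both directions most often in LPS blood. There 16 of 25 members with several tested probe sets had both signs among them, and 5 (Eef1d, Eif3c, Eif3e, Eif4a1 and Eif4g2) had probe sets called in both directions. In trauma-hemorrhage blood 12 of 23 had both signs and 3 (Eif2b2, Eif2s2 and Eif3a) were called both ways, in trauma-hemorrhage spleen 11 of 28 and 1 (Eif4ebp1). In burn blood, burn spleen and LPS spleen 8 of 26, 13 of 28 and 17 of 27 had both signs, and 0 were called both ways. The 2 sets in which probe sets were most often called both ways were those whose beta-actin 3' to 5' ratio differed between codes. The part of that ratio was not tested per probe set. Of the 51 representative probe sets, 6 have a name ending in _x_at and 5 in _s_at, which mark probes shared with other sequences or transcripts.

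**Figure D4:**
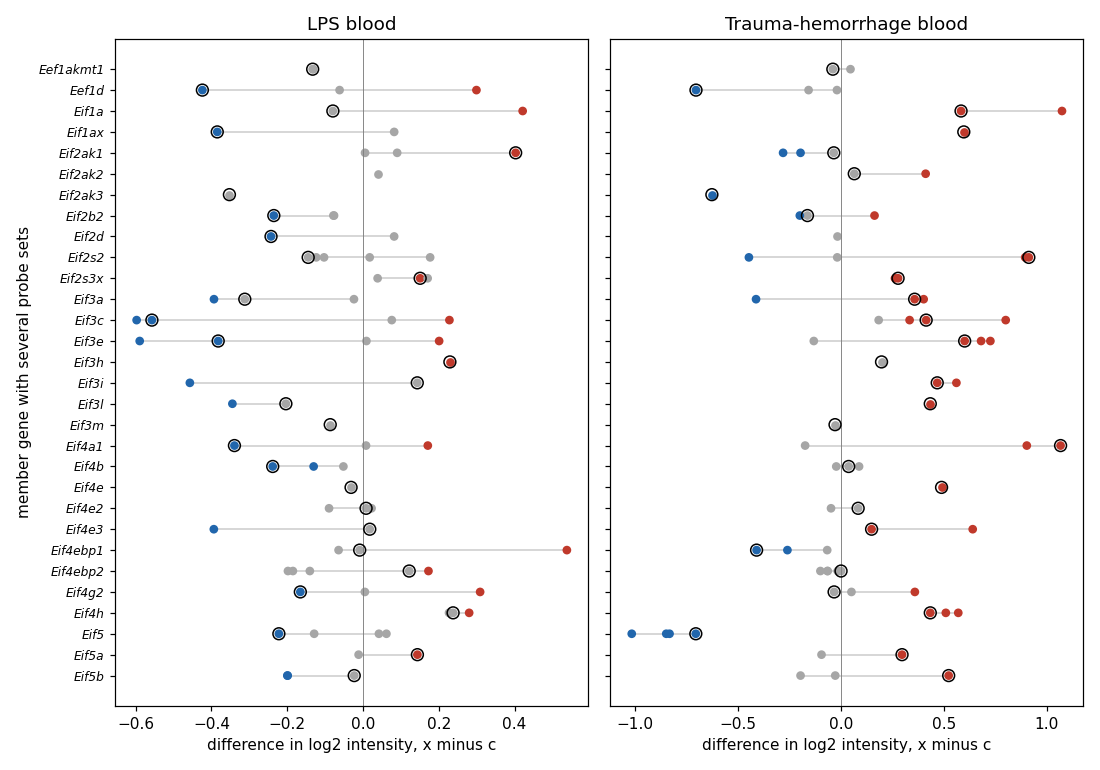
Difference in log2 intensity, x minus c, of every tested probe set (points, red called higher, blue called lower, grey not called) of the members with several probe sets, in LPS blood and trauma-hemorrhage blood, with the representative probe set circled. The 4 probe sets of Eif5 lie together below 0 in trauma-hemorrhage blood, while 5 genes in LPS blood and 3 in trauma-hemorrhage blood have probe sets called in both directions.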

How the data were processed

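RNA of mouse blood leukocytes and spleen was measured on 98 one-colour Affymetrix arrays. The deposited values are linear intensities, 1 per probe set and array. The authors' computation and scaling are not given in the sources used here, and each set has its own lowest value, so sets appear to have been scaled separately and levels were not compared between sets. The 64 control probe sets were left out. Intensities were taken as log2(intensity + 16) and quantile normalized within each tissue, the brightest probe set on average over all arrays stood for its gene, and the lowest 30% by mean were left out, which kept 10247 tested in each comparison. Under R 4.3.3, the limma 3.58.1 functions lmFit, contrasts.fit and eBayes with trend fitted 1 term per group, x minus c averaged over letters, two-sided, calls being made at 0.05 after Benjamini-Hochberg adjustment across every gene tested. The number of arrays limits the precision. Steps were tested on simulated data. Named genes were the 4 largest calls per direction in each set, members called in at least 5 sets, the brightest member of each role, members called in opposite directions in blood and spleen of a model, and the regulators, 34 in all. Genes outside this rule were named after their values were seen. The members and lists were chosen with earlier results of these data known. Promoters came from RefSeq tables on GRCm38.p6, where 51 of 51 symbols matched. Alternatives were other pseudocounts, scalings, filters, single letters, title-number runs as a block or alone (alone chosen after seeing the data), the beta-actin ratio as a covariate, array weights, every probe set, and leaving out each array.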

Additional observations from a re-analysis of the deposited data

Results flagged for a closer look

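The highest or lowest array was compared with the rest in 142 checks, each of 1 member in 1 group of 4 to 6 arrays. The members were those with the largest differences or with opposite calls in blood and spleen. The same group served for several members, so these checks are not independent. In 6 of them 1 array lay far from the others by Dixon's criterion, and chance gives about 1 in 20. Eif5 read 11.16 on replicate 3 of the x arrays of letter A in burn blood, against 10.97 to 10.99 on the other 3. Eif1b read 8.93 on replicate 5 of the x arrays of letter A in LPS blood, against 8.75 to 8.78 on the other 4. Eef1d read 9.29 on replicate 2 of the c arrays of letter E in LPS blood, against 9.48 to 9.60 on the other 5. Eif3b read 9.11 on replicate 1 of the x arrays of letter E in burn spleen, against 8.61 to 8.72 on the other 5. Eef1b2 read 10.26 on replicate 2 of the x arrays of letter E in trauma-hemorrhage blood, against 10.68 to 10.92 on the other 5. Eif3i read 9.35 on replicate 4 of the x arrays of letter E in trauma-hemorrhage blood, against 9.71 to 9.91 on the other 5.

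The effect of the code, x minus c, differed between sets for some members by limma's test of the difference itself. The counts were 19 of 45 for burn blood minus LPS blood, 22 of 45 for trauma-hemorrhage blood minus LPS blood, 30 of 45 for trauma-hemorrhage blood minus burn blood, 3 of 51 for burn spleen minus LPS spleen, 6 of 51 for trauma-hemorrhage spleen minus LPS spleen, 16 of 51 for trauma-hemorrhage spleen minus burn spleen, 6 of 48 for LPS blood minus LPS spleen, 10 of 47 for trauma-hemorrhage blood minus trauma-hemorrhage spleen. Single members called in opposite directions in the 2 sets and different by that test are given with the difference. For burn blood minus LPS blood these were Eif1b (-0.55), Eif3h (-0.53) and Eif5 (0.63). For trauma-hemorrhage blood minus LPS blood these were Eef1b2 (0.91), Eif1ax (0.98), Eif2b1 (-0.81), Eif3c (0.97), Eif3e (0.98), Eif3l (0.64) and Eif4a1 (1.41). For trauma-hemorrhage blood minus burn blood these were Eef1a1 (0.83), Eif1ax (0.86), Eif1b (0.58), Eif3c (0.62), Eif3d (1.15), Eif3f (0.51), Eif3i (0.79), Eif4h (0.73) and Eif5 (-1.11). For burn spleen minus LPS spleen this was Eif2ak3 (1.31). For trauma-hemorrhage spleen minus burn spleen this was Eif2ak3 (-1.61).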

How the results depend on the processing

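Counts of called members for x against c in burn blood, LPS blood, trauma-hemorrhage blood, burn spleen, LPS spleen and trauma-hemorrhage spleen were 13, 20, 31, 5, 2 and 19, and with every probe set on its own 26, 38, 55, 15, 3 and 32, where more features were tested. Letter A alone gave 22 in burn blood and 6 in LPS blood, letter E alone 1, 11 and 13 in the 3 blood sets, the second run of title numbers alone 0 in burn blood, 6 in LPS blood and 0 in LPS spleen, and the first 7 in trauma-hemorrhage blood. These use fewer arrays, and their counts over all genes are given above. The beta-actin ratio as a covariate gave 4 in LPS blood and 0 in trauma-hemorrhage blood, array weights 21 in burn blood and 9 in burn spleen, and the intensities as deposited 9 in burn spleen. The cause was not tested. Other pseudocounts, quantile normalization within each set, no filter on low values and the run as a block stayed within 1.5 times. Leaving out each array gave 11 to 17, 18 to 23, 28 to 31, 4 to 9, 2 to 2 and 14 to 19 in the same order, and 0 to 0 for E against A in each blood set. For differences of x minus c, every probe set gave 34 for burn against LPS blood, 50 for trauma-hemorrhage against LPS blood, 56 for trauma-hemorrhage against burn blood, 8, 10 and 27 for the same pairs in spleen, and 3, 10 and 23 for blood against spleen in burn, LPS and trauma-hemorrhage. The last was 16 on the intensities as deposited. Leaving out each array gave 16 to 19, 22 to 24, 29 to 32, 2 to 5, 3 to 8, 11 to 17, 0 to 3, 6 to 13 and 9 to 13 in that order. The 70 calls of named genes were read under these alternatives except every probe set on its own. For leaving out each array, only the lowest and the highest difference entered. Probe sets of 1 gene called in both directions, given above, are therefore not in this tally. Of the 888 values, 724 kept the direction and the call, 156 kept the direction only, and 8 reversed. With the beta-actin ratio as a covariate these were Eef2 (-0.142), Eif2b2 (0.095), Eif3h (-0.026) and Eif5 (0.234) in LPS blood and Eef2kmt (0.082) and Eif2b1 (0.149) in trauma-hemorrhage blood, with the second run alone Eif3e in LPS blood (0.0059), and on the intensities as deposited Eif2b2 in trauma-hemorrhage blood (0.020). Over all called members 7 of 20 in LPS blood and 2 of 31 in trauma-hemorrhage blood changed sign with the covariate, and 1 of 31 with letter A alone. Groups of 4 to 6 arrays, unexplained codes, cell markers and a beta-actin ratio that move with the code, and disagreeing probe sets limit what these values show. No paired analysis was possible because the titles give no replicate numbers shared between groups.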
